A study of Homo sapiens with 12 samples.

Results

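The genes described here encode the CDK-activating kinase, the kinase module of the Mediator complex and one further cyclin-dependent kinase, CDK11B. They were listed by name (CDK7, CCNH, MNAT1, CDK8, CDK19, CCNC, MED12, MED13, MED13L and CDK11B), and a listed gene was used when it had entries annotated to that gene alone whose values carry 3 decimals. Of the 10 listed genes, 9 met this rule, out of 16945 genes kept from the whole table, and all 9 passed the filter on dim genes, which left 10167 genes for testing. MNAT1 had 1 entry with at most 2 decimals and was not analysed here. The series profiled A673 and TC32, cell lines from Ewing sarcoma, a tumour of bone and soft tissue driven in these lines by the EWS/FLI fusion. The study asked how THZ531, a covalent inhibitor of the transcriptional kinases CDK12 and CDK13, acts on gene expression in them. Total RNA was taken 6 hours after the start of treatment and hybridised to expression arrays.

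The 6 groups were A673 with DMSO, with 100 nM and with 500 nM THZ531, and TC32 with the same 3 treatments, each with 2 arrays that the titles number as biological replicates. The protocol writes the compound as THZ_5_31_1. A dose of 100 nM is also attached to the DMSO samples and was taken not to apply. All groups were grown in the same serum-supplemented medium, and each line derives from a single tumour. Nothing in the labels says that replicates came from separately grown cultures, so every p-value here reflects how far these particular arrays scatter, which may be technical.

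Transcription by RNA polymerase II is paced by cyclin-dependent kinases. CDK7, cyclin H (CCNH) and MAT1 (MNAT1) form the CDK-activating kinase, which sits in the general transcription factor TFIIH, phosphorylates the polymerase tail at initiation and activates other CDKs through their T-loops. The Mediator kinase module binds reversibly to the Mediator core and holds CDK8 or its paralog CDK19, cyclin C (CCNC), MED12, and MED13 or its paralog MED13L, with MED13 proteins making the link to the core. CDK11B belongs to neither complex. It is a kinase of the CDK11 pair that partners with L-type cyclins and acts in transcription and splicing.

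Promoter windows are printed for the 3 kinase and module genes that shared a short motif, CDK7, CDK8 and MED13L, and for CDK19, the paralog of CDK8 that lacked it, because the first 3 were called lower at 500 nM than at 100 nM THZ531 in both lines and CDK19 was not. The motif CACGTG, which reads the same on both strands, was chosen after the sequences had been seen, and capitals mark it. Genes and motif were both picked with the results known, so their match follows from the choice. A link between motif and response was not tested. MED13, also lower at 500 nM than at 100 nM in both lines, had no promoter to search. MNAT1, CCNH, CCNC, MED12 and CDK11B lacked the motif too and are not printed. Sequences are from RefSeq on GRCh38.p14 and run 5′ to 3′ on the strand of the gene. The windows for CDK7 (chr5:69234645-69234794, plus strand), MED13L (chr12:116277694-116277843, minus strand) and CDK19 (chr6:110815856-110816005, minus strand) are the 150 bases before the start of the gene. The window for CDK8 (chr13:26253879-26254028, plus strand) begins 250 bases upstream of its start.
CDK7: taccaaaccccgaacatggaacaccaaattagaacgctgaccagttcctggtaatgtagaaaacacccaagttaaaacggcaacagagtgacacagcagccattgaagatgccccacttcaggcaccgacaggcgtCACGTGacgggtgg
CDK8: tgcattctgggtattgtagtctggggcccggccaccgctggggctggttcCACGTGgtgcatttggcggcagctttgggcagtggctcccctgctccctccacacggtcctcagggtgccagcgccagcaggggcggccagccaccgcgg
MED13L: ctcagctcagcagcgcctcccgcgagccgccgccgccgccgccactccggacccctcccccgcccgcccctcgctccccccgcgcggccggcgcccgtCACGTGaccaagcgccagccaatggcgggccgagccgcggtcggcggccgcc
CDK19: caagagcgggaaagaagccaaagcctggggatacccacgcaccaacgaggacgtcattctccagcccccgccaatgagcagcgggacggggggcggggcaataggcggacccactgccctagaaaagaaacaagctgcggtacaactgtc

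The match began at position -14 from the start of CDK7, -200 from that of CDK8 and -52 from that of MED13L. Among the listed genes 9 had a promoter to search, MNAT1 included and MED13 not. Of these 9, CDK7, CDK8 and MED13L held CACGTG in the 250 bases before their start, and 6.46% of all 27305 promoters did. A further 4 motifs were searched on both strands over the same 250 bases. CCAAT was found in 4 of the 9 promoters (CDK19, CCNC, MED13L and CDK11B) and in 33.0% of all. GGGCGG was found in 5 of the 9 (CCNH, CDK8, CDK19, MED12 and MED13L) and in 42.2% of all. CCGGAAGT and TATAAA were in 0 of the 9, against 3.64% and 11.2% of all promoters. A match says only that these letters stand in the window, and overlaps between motifs were not counted.

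Signal moved with treatment on whole arrays, and every value below has to be read beside that shift. In A673 the median over the tested genes was 8.78 to 8.87 (log2) on DMSO arrays, 8.11 to 8.16 after 100 nM and 7.43 to 7.98 after 500 nM. In TC32 this median was 7.94 to 8.08 on DMSO arrays, 7.72 on both arrays after 100 nM and 6.87 to 6.88 after 500 nM. One pair of replicates, A673 after 500 nM, stood apart by 0.52 in the median gene, more than any other pair. Replicates correlated across genes between 0.9906 and 0.9968. External control RNA was added, per the labels, and whether the arrays were scaled to it is not given in the sources used here, so less RNA per cell, fewer cells and a different scaling of the array cannot be told apart for a shift shared by all genes. Each difference is therefore given on the deposited log2 values and also after centring, that is, relative to the array's own median over the 16945 kept genes. A transcript is called lower or higher where the limma fit over all tested genes gave a Benjamini-Hochberg adjusted p under 0.05. As deposited, this fit took its spread from all tested genes together, not from a gene's own arrays. Those adjusted p-values can be too small for groups of 2 arrays. The shared spread also includes the A673 500 nM pair, which stood apart by 0.52. In comparisons without that group these p-values can instead be too large, and calls were gained there when either of its arrays was left out. The shift that centring removed from the differences was -0.83 (A673) and -0.79 (TC32) at 500 nM, and -0.62 (A673) and -0.21 (TC32) at 100 nM. After centring, the median difference over the tested genes was 0.10 (A673) and 0.15 (TC32) at 500 nM, and 0.10 (A673) and 0.14 (TC32) at 100 nM. A centred value near these is therefore typical of the tested genes.

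Of 8 Ewing sarcoma markers, 7 were kept. CD99 had array values between 13.15 and 13.89, PRKCB between 10.71 and 11.73 and STEAP1 between 10.38 and 12.55. NKX2-2 lay between 8.27 and 11.12, BCL11B between 6.51 and 10.9, FLI1 between 5.44 and 10.87 and PAX7 between 5.71 and 10.46. At their lowest, FLI1 and PAX7 lay under the filter level of 5.94. Of the markers of other cell types, 11 were kept, and 3 of them passed the filter: DES (muscle) between 6.36 and 7.82, VWF between 5.74 and 6.92 and PECAM1 between 5.63 and 6.74 (both endothelial). The other 8 did not pass it, the highest array values among them being 6.38 for CD3E (T cells) and 6.35 for KRT5 (epithelium). Of the defining markers, PTPRC (blood cells) lay between 3.52 and 4.23, EPCAM (epithelium) between 3.73 and 4.4, CDH5 (endothelium) between 5.08 and 5.98 and MYOD1 (muscle) between 4.69 and 5.36. The mean of the 7 Ewing markers lay between 9.30 and 9.78 in A673 at 500 nM, against 11.06 to 11.18 with DMSO, and between 9.15 and 9.17 in TC32 at 500 nM, against 11.04 to 11.13 with DMSO. The part of these shifts in the results below was not tested.

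After 500 nM THZ531, MED13, CDK7, CDK8 and MED13L transcripts fell in both lines by more than the arrays as a whole. After centring, CCNH, CCNC, MED12 and CDK11B stood 0.02 to 0.31 from DMSO. The median over the tested genes was then 0.10 in A673 and 0.15 in TC32. Many genes fell further than MED13L: 17.4% of tested genes in A673 and 28.5% in TC32. For CDK8 these shares were 13.2% and 8.68%. As deposited, 9 of 9 members were called lower in A673 at 500 nM, where 82.5% of tested genes were lower and 0.944% higher. In TC32 8 of 9 were lower, where 62.9% of tested genes were lower and 0.944% higher. Neither count by itself says more than the background does. After centring, 5 of 9 were lower and 0 higher in A673 (27.4% of tested genes lower, 29.8% higher), and 4 of 9 were lower and 2 higher in TC32 (30.7% lower, 41.4% higher). The median difference of the 9 members was -1.12 in A673 and -0.64 in TC32, against -0.73 (A673) and -0.64 (TC32) over all tested genes. The deposited count in TC32 was 4 without TC32 DMSO replicate 1 and 5 without TC32 500 nM replicate 1. The centred count of higher members was 2 in A673 without A673 DMSO replicate 2, and 1 in TC32 without either TC32 DMSO array or TC32 500 nM replicate 2.

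At 100 nM, MED13 and CDK19 were the 2 members called lower in both lines, and no member was called higher as deposited. The deposited TC32 call of CDK19 lay near the threshold (adjusted p = 0.0420, limma) and was lost without any 1 of 10 arrays. In A673, 3 of 9 members were lower at 100 nM as deposited (58.7% of tested genes lower, 1.32% higher), and after centring 2 were lower and 2 higher (17.1% and 24.5% of tested genes). In TC32, 2 of 9 were lower as deposited (20.9% of tested genes lower, 5.55% higher), and after centring 2 were lower and 5 higher (21.1% and 30.7%). The median difference of the members at 100 nM was -0.34 in A673 and 0.17 in TC32, against -0.52 and -0.07 over all tested genes. Both doses were set against the same DMSO arrays in each line. The deposited count in A673 was 7 lower without either A673 array at 500 nM, and in TC32 it was 1 lower without any of 10 arrays (all but those same A673 arrays) and 2 higher without either of them. After centring, the A673 counts were 6 higher and 1 lower without A673 DMSO replicate 2, 1 higher without DMSO replicate 1, 0 higher without 100 nM replicate 2 and 1 lower without 100 nM replicate 1. The TC32 counts were 2 higher without TC32 DMSO replicate 2 or 100 nM replicate 2, and 1 lower without either DMSO array or 100 nM replicate 1.

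**Figure D1:**
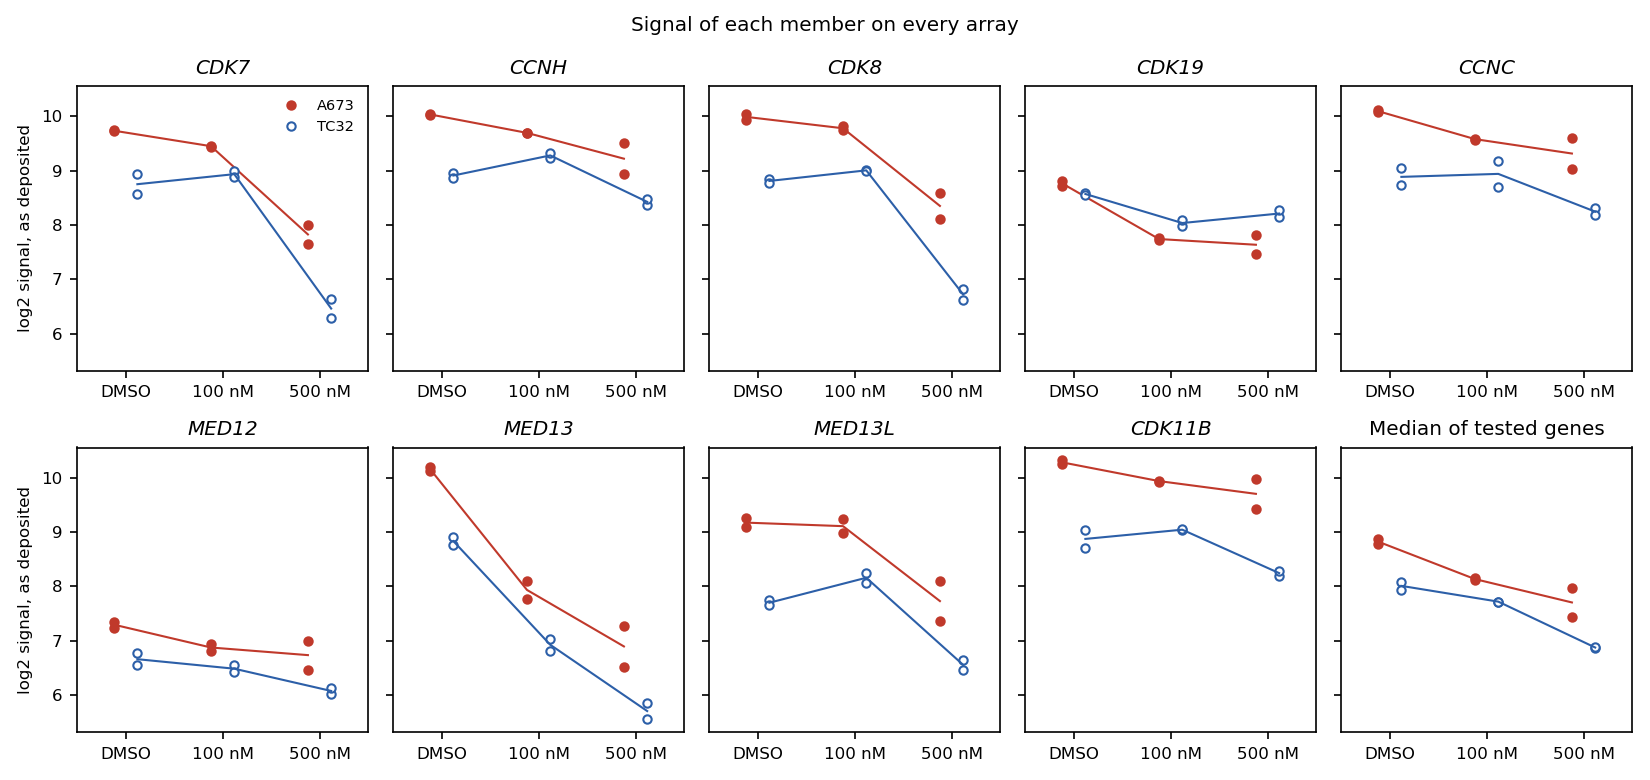
Log2 signal as deposited (vertical axes) of each of the 9 genes and of the array median over the tested genes, at DMSO, 100 nM and 500 nM THZ531 (horizontal axes). Each point is 1 array, filled for A673 and open for TC32, and lines join group means. MED13 falls at both doses, CDK7, CDK8 and MED13L fall at 500 nM, and CDK19 falls at 100 nM without a further fall at 500 nM.

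Among the module's scaffold subunits, MED13 fell most of the 9 genes in both lines and at both doses. In A673, MED13 had log2 values of 10.20 and 10.12 under DMSO, 8.10 and 7.77 after 100 nM and 7.28 and 6.51 after 500 nM. In TC32 they were 8.91 and 8.76 under DMSO, 6.82 and 7.03 after 100 nM and 5.55 and 5.86 after 500 nM. No 2 of the 3 groups overlapped in either line. At 500 nM in A673 the difference from DMSO was -3.26 ± 0.21 (SE), or 9.60-fold (adjusted p = 3.79e-53, limma), and -2.43 after centring (adjusted p = 7.57e-12). In TC32 it was -3.13 ± 0.21 (adjusted p = 3.29e-49) and -2.34 after centring (adjusted p = 7.72e-12), and since the treated mean of 5.71 lay under the filter level of 5.94, the fold was at least 7.43. At 100 nM it was -2.23 ± 0.21 in A673, a 4.67-fold fall, and -1.91 ± 0.21 in TC32, a 3.76-fold fall (adjusted p = 3.34e-24 and 3.22e-18, limma). After centring these were -1.61 and -1.71 (adjusted p = 2.17e-08 and 3.73e-09). Few tested genes had a lower difference than MED13: 0.531% in A673 and 0.993% in TC32 at 500 nM, and 0.374% and 0.954% at 100 nM. None of these calls was lost when any 1 of the 12 arrays was left out, and the largest adjusted p was 2.24e-06.

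MED13L, the paralog that takes the place of MED13 in the module, did not follow it at the low dose. MED13L was measured at 9.26 and 9.09 in A673 under DMSO, 8.98 and 9.24 after 100 nM and 8.10 and 7.36 after 500 nM. In TC32 it was measured at 7.75 and 7.65 under DMSO, 8.25 and 8.07 after 100 nM and 6.47 and 6.64 after 500 nM. The 100 nM and DMSO arrays overlapped in A673, and in TC32 both 100 nM arrays lay above both DMSO arrays. At 500 nM MED13L fell by 1.45 ± 0.21 in A673 and by 1.15 ± 0.21 in TC32 (adjusted p = 2.26e-11 and 1.32e-07, limma). After centring the differences were -0.61 in A673 (adjusted p = 0.000418) and -0.35 in TC32 (adjusted p = 0.0197). That TC32 call was lost without TC32 DMSO replicate 1, DMSO replicate 2 or 500 nM replicate 1 (-0.47 to -0.24 over all 12 omissions, adjusted p up to 0.188). At 100 nM the deposited differences of -0.06 in A673 and 0.46 in TC32 were not called (adjusted p = 0.792 and 0.0900), and without either A673 array at 500 nM the TC32 value was called higher (adjusted p = 0.00356). After centring MED13L was higher at 100 nM, by 0.56 in A673 and 0.67 in TC32 (adjusted p = 0.00152 and 0.000218), and the A673 call was lost without 100 nM replicate 2 (adjusted p = 0.0687).

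The 2 interchangeable kinases of the module, CDK8 and CDK19, also parted. CDK8 had log2 values of 10.05 and 9.93 in A673 under DMSO, 9.74 and 9.82 after 100 nM and 8.59 and 8.11 after 500 nM. In TC32 CDK8 had 8.85 and 8.77 under DMSO, 9.02 and 8.99 after 100 nM and 6.62 and 6.82 after 500 nM. Both 500 nM arrays lay at least 1 log2 unit under every other array of their line. At 500 nM CDK8 fell by 1.64 ± 0.21 in A673 (3.11-fold, adjusted p = 3.11e-14) and had a difference of -2.09 ± 0.21 in TC32 (4.26-fold, adjusted p = 1.23e-22), in the limma fit. After centring the differences were -0.80 and -1.30 (adjusted p = 5.81e-06 and 3.05e-09), and neither call was lost with any array left out. At 100 nM the deposited differences were -0.21 in A673 and 0.19 in TC32, with 95% intervals of -0.62 to 0.20 and -0.22 to 0.60 (adjusted p = 0.362 and 0.601). After centring CDK8 was higher at 100 nM, by 0.41 in A673 and 0.40 in TC32 (adjusted p = 0.00765 and 0.00809). Each of these 2 calls was lost without either of 2 arrays: DMSO replicate 1 or 100 nM replicate 2 in A673 (adjusted p up to 0.112), and DMSO replicate 2 or 100 nM replicate 2 in TC32 (adjusted p up to 0.0529).

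CDK19 reached its low level at 100 nM in A673. It had log2 values of 8.81 and 8.72 under DMSO, 7.72 and 7.76 after 100 nM and 7.81 and 7.46 after 500 nM in that line, so that the dosed groups overlapped each other and lay under DMSO. In TC32 it had 8.59 and 8.55 under DMSO, 7.98 and 8.09 after 100 nM and 8.14 and 8.28 after 500 nM, with the 500 nM arrays above the 100 nM arrays. In A673 CDK19 fell by 1.03 ± 0.21 at 100 nM and by 1.13 ± 0.21 at 500 nM (adjusted p = 6.06e-06 and 2.37e-07, limma). After centring these were -0.41 (adjusted p = 0.00936) and -0.29 (adjusted p = 0.0424). The first of these relative calls was lost without A673 DMSO replicate 2 or 100 nM replicate 1 (adjusted p up to 0.0859), and the second without any of 7 arrays (all A673 arrays but DMSO replicate 1, and both TC32 DMSO arrays, adjusted p up to 0.214).

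In TC32 the fall of CDK19 at 100 nM was 0.53 (difference -0.53 ± 0.21, adjusted p = 0.0420, limma), and it was lost without any 1 of 10 arrays, all but the 2 A673 arrays at 500 nM (adjusted p 0.0627 to 0.289). At 500 nM the deposited difference was -0.36 (95% interval -0.77 to 0.05, adjusted p = 0.120), and without either A673 array at 500 nM it was called lower (adjusted p = 0.00390 to 0.00400). After centring CDK19 was 0.33 lower at 100 nM (difference -0.33, adjusted p = 0.0284, lost without TC32 DMSO replicate 1, DMSO replicate 2 or 100 nM replicate 1, adjusted p up to 0.240). It was 0.44 higher at 500 nM (adjusted p = 0.00292, at most 0.0463 with 1 array left out).

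Cyclin C and MED12, which bind and activate the module kinase, moved little beyond the array medians. CCNC had log2 values of 10.08 and 10.11 in A673 under DMSO, 9.57 and 9.59 after 100 nM and 9.60 and 9.03 after 500 nM, and in TC32 9.04 and 8.73, 8.70 and 9.18, and 8.31 and 8.18 at the same doses. The A673 dosed arrays all lay under DMSO, and in TC32 the 100 nM arrays spanned the DMSO arrays. As deposited CCNC fell by 0.78 in A673 and by 0.64 in TC32 at 500 nM (adjusted p = 0.000342 and 0.00405, limma), and by 0.51 in A673 at 100 nM (adjusted p = 0.0256). The A673 100 nM call was lost without any 1 of the 4 arrays compared (adjusted p 0.104 to 0.128), and the TC32 500 nM call without TC32 DMSO replicate 1 or 500 nM replicate 2 (adjusted p up to 0.134). After centring CCNC had no call at either dose with all 12 arrays, with differences between 0.05 and 0.26. Without TC32 100 nM replicate 1 the TC32 value at 100 nM was 0.57 and called higher (adjusted p = 0.00377), against -0.04 without replicate 2.

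MED12 moved nearly with the array medians. It was measured at 7.24 and 7.35 in A673 under DMSO, 6.94 and 6.81 after 100 nM and 7.0 and 6.47 after 500 nM. In TC32 it was measured at 6.77 and 6.55 under DMSO, 6.55 and 6.42 after 100 nM and 6.02 and 6.13 after 500 nM. At 500 nM MED12 fell by 0.56 in A673 and by 0.58 in TC32 as deposited (adjusted p = 0.0124 and 0.0121, limma). The A673 call was lost without DMSO replicate 2 or 500 nM replicate 2 (adjusted p up to 0.145) and the TC32 call without DMSO replicate 1 or 500 nM replicate 1 (adjusted p up to 0.156). After centring the differences from DMSO lay between 0.04 and 0.27 over both lines and doses, and none was called with all 12 arrays. Without A673 DMSO replicate 2, MED12 was called higher in A673, by 0.45 at 500 nM and 0.38 at 100 nM (adjusted p = 0.0113 and 0.0379). As deposited the A673 value at 100 nM was -0.42 (adjusted p = 0.0744), and it was called lower without either A673 array at 500 nM (adjusted p up to 0.0119). The group means of MED12 after centring spanned 0.27 over the 6 groups, against 2.97 for MED13, and 1.22 as deposited.

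**Figure D2:**
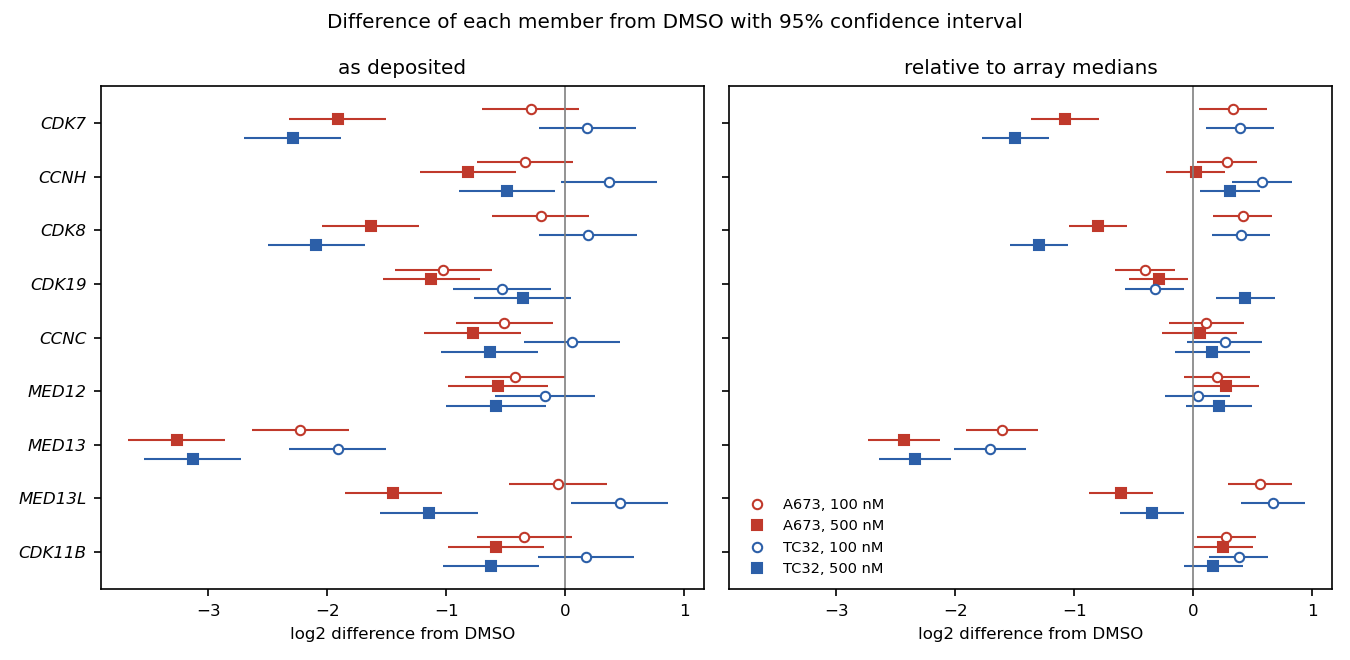
Fitted log2 differences from DMSO (horizontal axes) for each gene (rows) with 95% confidence intervals, as deposited on the left and relative to the array medians on the right. Open circles are 100 nM and filled squares 500 nM, red for A673 and blue for TC32. MED13 lies left of 0 at both doses in both panels, from -3.26 to -1.61, and CDK19 at 500 nM relative to the array medians lies at -0.29 in A673 and at 0.44 in TC32.

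In the CDK-activating kinase, the catalytic subunit fell at 500 nM and its cyclin stayed near the array median. CDK7 had log2 values of 9.73 and 9.74 in A673 under DMSO, 9.46 and 9.44 after 100 nM and 8.0 and 7.65 after 500 nM. In TC32 CDK7 had 8.93 and 8.57 under DMSO, 8.99 and 8.88 after 100 nM and 6.29 and 6.63 after 500 nM. The 500 nM arrays lay under all others of their line, and in TC32 the 100 nM and DMSO arrays overlapped. At 500 nM CDK7 fell by 1.91 ± 0.21 in A673 (3.77-fold, adjusted p = 5.86e-19) and by 2.29 ± 0.21 in TC32 (4.89-fold, adjusted p = 8.35e-27), in the limma fit. After centring the differences were -1.08 and -1.50 (adjusted p = 7.44e-07 and 3.33e-09), and neither call was lost with any array left out. Of the tested genes, 8.64% in A673 and 6.27% in TC32 had a lower difference at 500 nM. At 100 nM the deposited differences were -0.29 in A673 and 0.19 in TC32 (adjusted p = 0.203 and 0.618). After centring CDK7 was 0.39 higher in TC32 (adjusted p = 0.0213), a call lost without TC32 DMSO replicate 2 or either TC32 100 nM array (adjusted p up to 0.256), and the A673 value of 0.33 was not called (adjusted p = 0.0580), except without A673 DMSO replicate 2 or either TC32 array at 500 nM (adjusted p 0.018 to 0.0384). The deposited A673 value at 100 nM was called lower without either A673 array at 500 nM (adjusted p up to 0.0395).

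CCNH, the cyclin that activates CDK7, had log2 values of 10.04 and 10.03 in A673 under DMSO, 9.70 and 9.69 after 100 nM and 9.51 and 8.93 after 500 nM. In TC32 CCNH had 8.95 and 8.87 under DMSO, 9.23 and 9.33 after 100 nM and 8.37 and 8.48 after 500 nM. The TC32 arrays at 100 nM lay above DMSO and those at 500 nM below it. As deposited CCNH fell at 500 nM by 0.81 in A673 and by 0.49 in TC32 (adjusted p = 0.000174 and 0.0299, limma), and the TC32 call was lost without any of the 4 TC32 arrays compared or either A673 array at 100 nM (adjusted p 0.0520 to 0.171). After centring CCNH was 0.02 from DMSO in A673 at 500 nM (95% interval -0.23 to 0.27, adjusted p = 0.900) and 0.31 higher in TC32 (adjusted p = 0.0273), a call lost without either TC32 DMSO array or 500 nM replicate 2 (adjusted p up to 0.191). At 100 nM it was 0.57 higher in TC32 after centring (adjusted p = 0.000472, at most 0.0111 with 1 array left out), and 0.28 in A673 was not called (adjusted p = 0.0652) except without A673 DMSO replicate 2 (0.40, adjusted p = 0.0211). As deposited the 100 nM values were -0.34 in A673 and 0.37 in TC32 (adjusted p = 0.135 and 0.201), and without either A673 array at 500 nM they were called lower in A673 and higher in TC32 (adjusted p up to 0.0025).

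CDK11B could not be told from CDK11A, its near-identical neighbour. Its values were identical to those of 5 of 5 probe sets annotated to both genes and of 1 of 3 probe sets annotated to CDK11A. CDK11B had log2 values of 10.32 and 10.25 in A673 under DMSO, 9.95 and 9.93 after 100 nM and 9.98 and 9.43 after 500 nM. In TC32 it had 9.04 and 8.71 under DMSO, 9.03 and 9.06 after 100 nM and 8.20 and 8.29 after 500 nM. The 500 nM arrays lay under DMSO in both lines, and the 100 nM and DMSO arrays overlapped in TC32. At 500 nM it fell by 0.58 in A673 and by 0.63 in TC32 as deposited (adjusted p = 0.00715 and 0.00444, limma), calls lost without A673 DMSO replicate 1 (adjusted p = 0.0715), and in TC32 without DMSO replicate 1 or 500 nM replicate 1 (adjusted p up to 0.148). After centring the differences at 500 nM were 0.25 in A673 and 0.17 in TC32 (adjusted p = 0.0770 and 0.213), and the A673 value was called higher without A673 DMSO replicate 2 (0.34, adjusted p = 0.0438). At 100 nM CDK11B was 0.38 higher in TC32 after centring (adjusted p = 0.0120), and this was lost without TC32 DMSO replicate 2 or 100 nM replicate 2 (adjusted p up to 0.191). In A673 at 100 nM the difference was -0.34 as deposited (adjusted p = 0.128), called lower without either A673 array at 500 nM (adjusted p up to 0.00538), and 0.28 after centring (adjusted p = 0.0698), called higher without A673 DMSO replicate 2 (adjusted p = 0.0371).

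**Figure D3:**
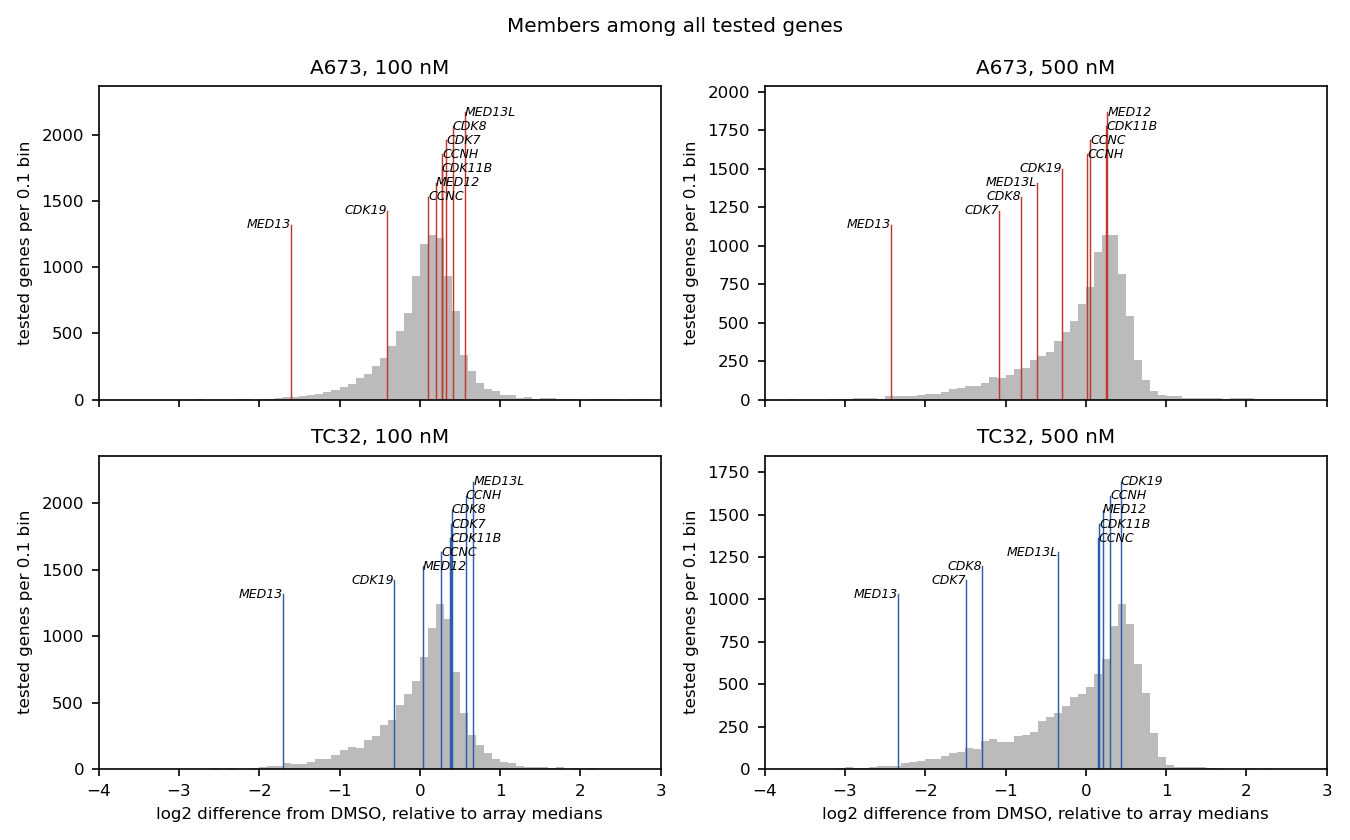
Number of tested genes (vertical axes, bins of 0.1) by log2 difference from DMSO relative to the array medians (horizontal axes), with lines at the 9 genes, in A673 above and TC32 below, at 100 nM on the left and 500 nM on the right. MED13 stands in the lower tail in all 4 panels. CDK7 and CDK8 lie on the lower side at 500 nM, with 6.27% to 13.2% of tested genes lower still. At 100 nM these 2 genes lie between 0.33 and 0.41, near the bulk of genes.

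The 2 doses were also set against each other within each line. In A673, 4 of 9 members were lower at 500 nM than at 100 nM in both scalings (as deposited 26.7% of tested genes were lower and 0.895% higher, after centring 25.2% and 10.5%), namely CDK7, CDK8, MED13 and MED13L. Their deposited differences were -1.62, -1.43, -1.04 and -1.38, and after centring -1.41, -1.22, -0.82 and -1.17 (adjusted p at most 9.34e-05, limma). The other 5 had no call as deposited, with differences between -0.48 and -0.10. Without A673 500 nM replicate 1, the deposited count was 8, since CCNH, CCNC, MED12 and CDK11B were then also called (adjusted p 7.31e-06 to 0.0498).

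In TC32, 7 of 9 members were lower at 500 nM than at 100 nM as deposited (55.5% of tested genes lower, 1.09% higher), and 4 were lower and 1 higher after centring (29.8% and 29.2%). The 4 were CDK7 (-2.48 as deposited, -1.89 relative), CDK8 (-2.28 and -1.70), MED13L (-1.60 and -1.02) and MED13 (-1.22 and -0.63). For MED13 the 500 nM mean lay under the filter level, so the fold was at least 1.97. CDK7 and CDK8 thus stood lower at 500 nM than at 100 nM by 5.56-fold and 4.87-fold as deposited. CCNH (-0.85), CCNC (-0.69) and CDK11B (-0.80) were lower as deposited alone, and the CCNC call was lost without TC32 100 nM replicate 2 (adjusted p = 0.161). After centring CCNH was called lower without either A673 DMSO array, TC32 100 nM replicate 1 or 500 nM replicate 2 (adjusted p 0.0297 to 0.0465), and CCNC without TC32 100 nM replicate 1 (-0.41, adjusted p = 0.0255). MED12, at -0.41 as deposited, was called lower without either A673 array at 500 nM (adjusted p up to 0.0158). CDK19 was the member that stood higher, by 0.76 after centring (adjusted p = 1.25e-05, limma), while its deposited difference of 0.18 was not called (adjusted p = 0.477).

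Pairs of genes were followed within each array, which removes any shift that acts on both genes alike. Each pair difference is given after subtracting its DMSO mean in the line, since levels of different probe sets cannot be compared. CDK8 minus CDK19 was 0.80 and 0.84 in A673 at 100 nM and -0.45 and -0.58 at 500 nM, and in TC32 it was 0.79 and 0.65 at 100 nM and -1.77 and -1.70 at 500 nM. The CDK8 signal therefore stood above that of CDK19, each against its own DMSO level, at the low dose and under it at the high dose in both lines. MED13 minus MED13L was negative on every treated array, at -1.87 and -2.46 (100 nM) and -1.80 and -1.83 (500 nM) in A673, and at -2.57 and -2.18 (100 nM) and -2.06 and -1.91 (500 nM) in TC32. CDK7 minus CCNH was 0.05 and 0.04 in A673 at 100 nM and -0.07 and -0.29 in TC32, where the DMSO arrays themselves stood at 0.15 and -0.15. At 500 nM it was -1.21 and -0.98 in A673 and -1.91 and -1.69 in TC32. These differences are descriptions and were not tested.

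**Figure D4:**
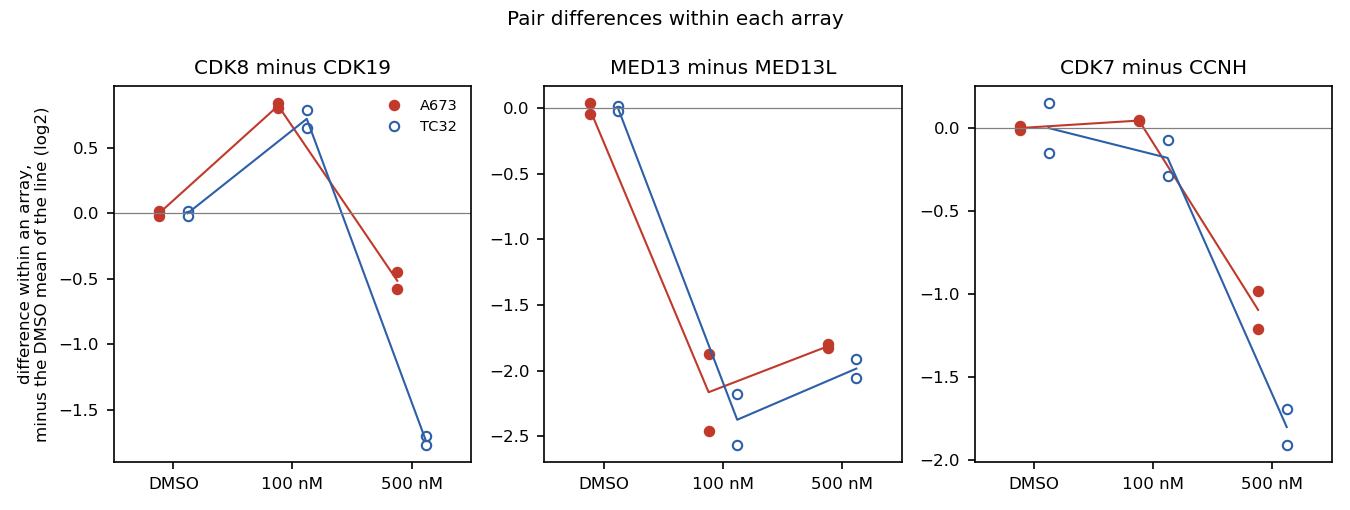
Difference of log2 signal between the 2 genes of a pair within an array, minus the DMSO mean of the line (vertical axes), at DMSO, 100 nM and 500 nM THZ531 (horizontal axes). Each point is 1 array, filled for A673 and open for TC32, and lines join group means. CDK8 minus CDK19 is above 0 at 100 nM and below 0 at 500 nM, while MED13 minus MED13L is between -2.57 and -1.80 on every treated array.

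Whether the lines responded differently was tested as the difference between their effects, TC32 minus A673. At 500 nM no member was called as deposited (1.28% of tested genes lower and 0.551% higher), and without A673 500 nM replicate 1 the count of higher calls was 3 (CDK19, CCNH and MED13L, adjusted p = 0.000788, 0.00412 and 0.0121 in limma). Without A673 500 nM replicate 2, CDK19 was called higher (adjusted p = 0.0161) and CDK8 lower (adjusted p = 0.00487). After centring, 1 of 9 was higher and 0 lower (3.1% and 6.74% of tested genes). This was CDK19, at 0.73 ± 0.17 (adjusted p = 0.00722, limma), with centred values of 8.84 and 9.04 in TC32 at 500 nM against 8.49 and 8.52 with DMSO, and 7.66 and 7.78 in A673 at 500 nM against 7.93 and 8.09 with DMSO. The deposited difference of 0.77 ± 0.30 was of like size and not called (adjusted p = 0.220). The relative call held with any 1 array left out (0.63 to 0.83, adjusted p up to 0.0480). CDK8 had a value of -0.49 ± 0.17 after centring (adjusted p = 0.0639), which was called lower without A673 DMSO replicate 2 or TC32 500 nM replicate 2 (adjusted p 0.0282 to 0.0370). For MED13 the difference between the lines was 0.13 as deposited (95% interval -0.45 to 0.71) and 0.09 after centring (-0.34 to 0.52).

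At 100 nM no member differed between the lines in either scaling (2.23% of tested genes higher and 0.0885% lower as deposited, 0.866% and 1.78% after centring). After centring the 9 differences lay between -0.16 (MED12) and 0.29 (CCNH). As deposited they lay between 0.25 and 0.71, and without either A673 array at 500 nM, which shares the estimate of spread, 7 members (all but MED12 and MED13) were called higher in TC32 than in A673, with adjusted p from 0.00106 to 0.034. The median over all tested genes was 0.41 in the same comparison as deposited and 0.00 after centring.

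With DMSO alone, A673 carried more signal of most of these genes than TC32. As deposited, 8 of 9 were higher in A673, where 77.4% of tested genes were higher and 5.12% lower. After centring, 6 of 9 were higher and 1 lower (34% and 21.4% of tested genes). MED13L differed most, by 1.47 as deposited and 0.78 after centring (adjusted p = 1.41e-11 and 2.48e-05, limma), with 9.26 and 9.09 in A673 against 7.75 and 7.65 in TC32. CDK11B (0.72), MED13 (0.63), CCNC (0.52), CDK8 (0.49) and CCNH (0.43) were higher in A673 after centring, with adjusted p from 2.7e-05 to 0.00614. The CCNC call was lost without A673 DMSO replicate 2 or TC32 DMSO replicate 2 (adjusted p up to 0.0955) and the CCNH call without A673 DMSO replicate 2 (adjusted p = 0.0577). CDK19 differed from the rest, with a deposited difference of 0.20 (adjusted p = 0.373) and a relative difference of -0.50 (adjusted p = 0.00136), so its sign depended on the scaling, as did that of MED12 (0.64 as deposited, adjusted p = 0.00417, lost without TC32 DMSO replicate 2 with adjusted p = 0.0802, and -0.05 after centring). CDK7 was 0.99 higher as deposited (adjusted p = 5.87e-06), and its relative difference of 0.30 was not called (adjusted p = 0.0714), except without A673 DMSO replicate 1, TC32 DMSO replicate 1 or either TC32 array at 500 nM (adjusted p 0.0219 to 0.0487).

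The rest of Mediator, to which the kinase module binds, was also lower at 500 nM, and so were most tested genes. Of 26 listed genes of the head, middle, scaffold and tail, 23 were tested. In A673 at 500 nM, 23 of 23 were lower as deposited and 13 lower and 1 higher after centring, with a median of -1.33 (deposited). Over all tested genes 82.5% were lower as deposited, with a median of -0.73, and 27.4% were lower and 29.8% higher after centring. In TC32, 21 of 23 were lower as deposited and 16 lower and 2 higher after centring, with a median of -1.50. Over all tested genes 62.9% were lower as deposited, with a median of -0.64, and 30.7% were lower and 41.4% higher after centring. All 8 genes of the middle part were lower at 500 nM in both lines and in both scalings. MED9 had the lowest value in A673 (-3.24 as deposited, -2.41 relative, at least 4.54-fold because the treated mean lay under the filter level), and MED7, a hinge subunit, in TC32 (-2.93 and -2.14, at least 5.68-fold). In the head, which contacts the polymerase, MED17 had the lowest value in both lines, -2.74 in A673 and -3.07 in TC32, and -1.90 and -2.27 after centring. In the tail, MED23 was lowest, at -2.20 in A673 and -2.05 in TC32 (-1.37 and -1.26 relative).

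At 100 nM the Mediator core had calls in both directions. In A673, 17 of 23 genes were lower and 1 higher as deposited (58.7% of tested genes lower, 1.32% higher), and 6 lower and 3 higher after centring (17.1% and 24.5%). In TC32, 7 were lower and 2 higher as deposited (20.9% and 5.55%), and 7 lower and 5 higher after centring (21.1% and 30.7%). MED26, the middle subunit through which elongation factors are recruited, was called higher at 100 nM, by 0.50 in A673 and 0.73 in TC32 as deposited (adjusted p = 0.0303 and 0.00290, limma). MED26 was 1.12 and 0.93 higher after centring. MED7 had the lowest value of the middle part at this dose, -1.63 in A673 and -1.21 in TC32 (-1.01 and -1.0 relative). MED29 was lowest in the tail, at -1.17 in A673 and -1.57 in TC32, and MED22 in the head, at -1.26 and -1.16.

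TFIIH, the complex that houses CDK7, had 5 of 7 listed core genes tested. At 500 nM 5 of 5 were lower in A673 and 3 of 5 in TC32 as deposited, and after centring 2 were lower in A673, and 2 lower and 3 higher in TC32. Over all tested genes 82.5% (A673) and 62.9% (TC32) were lower as deposited, and after centring 27.4% were lower in A673, and 30.7% lower and 41.4% higher in TC32. GTF2H1, its p62 subunit, was the lowest at both doses and in both lines. At 100 nM GTF2H1 stood at -2.03 in A673 and -2.15 in TC32 (-1.41 and -1.94 after centring), and at 500 nM at -1.51 in A673 and -2.09 in TC32 (-0.68 and -1.30 relative).

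The CDKs that CDK7 activates through the T-loop, 5 of 5 tested, were all lower at 500 nM as deposited in both lines, with 2 lower and 2 higher in A673 and 1 lower and 1 higher in TC32 after centring. Over all tested genes 82.5% (A673) and 62.9% (TC32) were lower as deposited. After centring, 27.4% of tested genes were lower and 29.8% higher in A673, and 30.7% lower and 41.4% higher in TC32. CDK9, the kinase of P-TEFb, was lowest, at -1.45 in A673 and -1.74 in TC32 (-0.62 and -0.94 relative). Of the 3 tested genes listed as CDK11 partners and paralog, 3 were lower in A673 and 1 in TC32 at 500 nM as deposited. After centring 1 was lower and 0 higher in A673, and 1 lower and 2 higher in TC32, against the same shares of all tested genes. CCNL1, an L-type cyclin that partners with CDK11, was the lowest. It fell at 500 nM by 2.04 in A673 and by 1.73 in TC32 as deposited (-1.20 and -0.93 relative). At 100 nM CCNL1 had deposited differences of -0.23 in A673, which was not called, and 0.52 in TC32 (adjusted p = 0.0496, limma). Under DMSO the difference of A673 from TC32 had a median of 0.97 over the 23 Mediator core genes and of 0.81 over all tested genes.

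**Figure D5:**
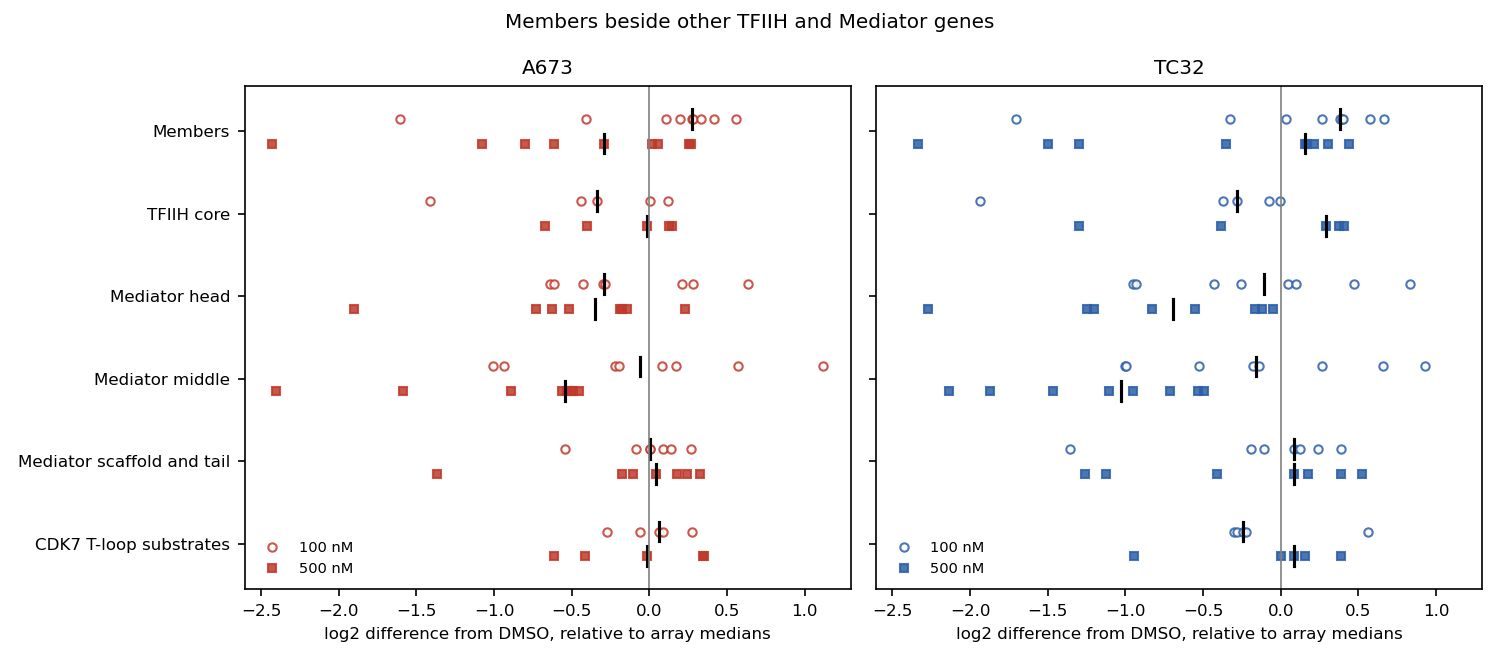
Log2 difference from DMSO relative to the array medians (horizontal axes) of each tested gene (points) by list (rows), for A673 on the left and TC32 on the right. Open circles are 100 nM, filled squares 500 nM, and black ticks are list medians. All 8 squares of the Mediator middle part lie below 0 in both lines, and 1 TFIIH gene, GTF2H1, lies apart at 100 nM at -1.41 in A673 and -1.94 in TC32.

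Over the 12 centred arrays, which share treatment and line, CDK7 and CDK8 followed each other most closely of the 9 genes (Pearson r = 0.972), then CDK8 and MED13L (0.915). CDK19 ran against most members, with r of -0.855 to CDK11B, -0.751 to MED13L and -0.715 to CDK8. Among all other tested genes, those most like MED13 over the 12 arrays were ZNF451 (0.993), ANKS1A (0.992) and NCOA6 (0.992), and those most like CDK7 were NRBF2 (0.998), CTCF (0.994) and DDX3X (0.993). CDR2 (0.994), ISCA1 (0.993) and AUNIP (0.993) were most like CDK8. ARHGAP32 (0.984), LRP6 (0.983) and KAT7 (0.983) were most like MED13L. These correlations describe 6 groups of 2 arrays and carry no test.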

How the data were processed

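Expression was measured on 12 arrays. The table deposited by the authors holds log2 signals for 49395 probe sets, and the submitters' processing notes name MAS5, GRCh37 and hg19 without their role. Probe sets annotated to 1 gene (44994) were used. Entries with 3 decimals (46566) repeat 1 gene-level value over the probe sets of a gene, except in 10 kept genes. Each member has 1 set of values, so its isoforms cannot be told apart. The other 2829 entries were left out: over the 1704 of them checked, annotated to 1 gene, 0 of 12 arrays lay nearest their own replicate, against 12 of 12 in the 3-decimal entries. Genes whose values also stood under another symbol (84) were left out, except listed members. Genes with a mean at or above the 40th percentile (5.94) were tested with limma 3.58.1 (R 4.3.3; 1 mean per group, mean-variance trend, two-sided); Python 3.11.15 and pandas 2.3.3 prepared tables. As deposited, whole-array offsets are shared by all genes and limma's prior degrees of freedom were infinite. Those adjusted p-values can therefore be too small for groups of 2 arrays. They can be too large in comparisons without the A673 500 nM group, whose replicate offset of 0.52 enters the shared spread. In simulated data with 10167 genes, 100 were changed by 1 and another 100 by 2 in the A673 500 nM comparison. From each set limma recovered 100, with 13 false calls in all. The simulated noise was independent, with the median spread of the centred fit (0.118) and no whole-array offsets. The simulation therefore cannot vouch for calls on the deposited values. The members and gene lists were chosen with earlier results of these data known. Beyond the members, the text names the lowest and highest gene per list and comparison and the 3 most correlated genes for 4 members. Alternatives were centring, other filters on dim genes, no mean-variance trend, averaging distinct entries of a gene, a replicate block and leaving out each array; the block and the omissions on centred values were added after the data had been seen.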

Additional observations from a re-analysis of the deposited data

Results flagged for a closer look

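CDK19 was singled out because its response to 500 nM THZ531 differed between the lines in a direct test of that difference. Relative to the array medians the effect in TC32 minus that in A673 was 0.73 (log2, adjusted p = 0.00722, limma), with a rise of 0.44 against DMSO in TC32 and a difference of -0.29 in A673. After centring, both TC32 arrays moved up and both A673 arrays moved down against their DMSO means. With 1 array left out the A673 difference lay between -0.37 and -0.21, and its call did not hold under every omission. The median of all tested genes in the same comparison was 0.06, and 3.1% of them were called higher and 6.74% lower. As deposited the difference between the lines was 0.77 and was not called (adjusted p = 0.220, limma). CDK19 in TC32 was then -0.36 from DMSO (not called), so the rise was present only after centring. The part of array scaling in it was not tested.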

How the results depend on the processing

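MED13, CDK7 and CDK8 kept their calls at 500 nM against DMSO under every alternative tried. Centring each array on its median changed counts of members. The lower count became 5 in A673 at 500 nM, and in TC32 it became 4 at 500 nM and 4 for 500 nM against 100 nM. The higher count became 2 in A673 at 100 nM, 2 in TC32 at 500 nM, 5 in TC32 at 100 nM, 1 in TC32 for 500 nM against 100 nM and 1 for the 500 nM effect between lines, and the lower count under DMSO became 1. Of 81 member values, 25 changed sign under centring, and 11 of these were called in neither scaling. The 14 called in at least 1 scaling were CCNH (0.019), CCNC (0.054), MED12 (0.27) and CDK11B (0.25) in A673 at 500 nM, CDK8 (0.41), CCNC (0.11) and MED13L (0.56) in A673 at 100 nM, CCNH (0.31), CDK19 (0.44), CCNC (0.16), MED12 (0.21) and CDK11B (0.17) in TC32 at 500 nM, and CDK19 (-0.50) and MED12 (-0.052) under DMSO. Without the filter on dim genes, 1 member was lower in TC32 at 100 nM (CDK19 adjusted p = 0.0658). The cause was not tested.

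With 1 array left out, deposited counts ranged from 8 to 9 lower in A673 at 500 nM, 2 to 7 lower in A673 at 100 nM, 4 to 9 lower in TC32 at 500 nM, 1 to 2 lower and 0 to 2 higher in TC32 at 100 nM, 4 to 8 lower in A673 and 6 to 8 lower in TC32 for 500 nM against 100 nM, 7 to 8 higher under DMSO, 0 to 3 higher and 0 to 1 lower for the 500 nM effect, and 0 to 7 higher for the 100 nM effect. Relative to the array medians they ranged from 4 to 5 lower and 0 to 2 higher in A673 at 500 nM, 1 to 2 lower and 0 to 6 higher in A673 at 100 nM, 3 to 4 lower and 1 to 2 higher in TC32 at 500 nM, 1 to 2 lower and 2 to 5 higher in TC32 at 100 nM, 4 to 6 lower in TC32 for 500 nM against 100 nM, 4 to 7 higher under DMSO, and 0 to 1 lower for the 500 nM effect.

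The replicate numbers did not pair the samples throughout: deviations of same-numbered arrays correlated between -0.15 and 0.44 over 15 pairs of groups, 10 of them under 0.1. Whether some groups shared a batch was not tested. With the replicate block, 1 member was lower for the 500 nM effect relative to the array medians (CDK8, -0.49, adjusted p = 0.0456). It also called CDK7 higher in A673 at 100 nM after centring (0.33, adjusted p = 0.0433) and, as deposited, MED12 lower in A673 at 100 nM (-0.42, adjusted p = 0.0341) and in TC32 at 500 nM against 100 nM (-0.41, adjusted p = 0.0420). The block ended no call. With 2 arrays per group the precision of every value is low.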
